A study of Mus musculus with 30 samples.

Results

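The simple epithelial keratins Krt7, Krt8, Krt18, Krt19 and Krt20 were followed through all 30 mouse libraries of the series, as 5 of the 13456 genes listed in at least 1 of 7 deposited tables. They were chosen by name, with earlier results of these data known, and every table that listed a member was used. Krt7, Krt8, Krt18 and Krt19 stood in all 7 tables. Krt20 stood in the colon epithelium table and the 3 colonoid tables, and was not listed in the 3 colonocyte tables.

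The libraries formed 10 groups of 3. Colon epithelium came from C57BL/6J mice with a Smad4 deletion named Smad4ΔLrig1, after the crypt progenitor gene Lrig1, and from Smad4+ controls; their age and the timing of the deletion are not stated in the sources used. Colonoids (organoid cultures of colon epithelium) were of the lines L42, L43 and L46, and each line gave 1 library per treatment. They received all 3 ligands together, TGFB1 (3 ng/mL) with BMP2 (10 ng/mL), TNF (100 ng/mL), or vehicle. Cultured colonocytes labelled IMCfl/fl Smad4+ received all 3 ligands, TGFB1 with BMP2, TNF, or no ligand; doses, treatment time and the origin of the replicates are not stated for them in the sources used, and their p-values may reflect technical spread only. The labels give no genotype for the colonoid lines. The series describes its replicates as biological.

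Keratins are intermediate filament proteins, and a filament forms only when a type I chain pairs with a type II chain. Krt7 and Krt8 are type II chains, and Krt18, Krt19 and Krt20 are type I chains. In simple epithelia such as the colon lining, Krt8 pairs with Krt18 or Krt19, and mice without Krt8 develop colitis. Krt20 is known as a keratin of the differentiated upper crypt and surface cells, and Krt7 is known from ductal and glandular epithelia. TGFB1 and BMP2 signal through receptor-activated Smads, which partner with Smad4 in the nucleus, and TNF signals mainly through NF-κB.

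In mm10 (GENCODE), the members lie in the clustered keratin loci of 2 chromosomes. Krt7 (chr15:101411043-101430313, plus strand), Krt8 (chr15:101996698-102004482, minus strand) and Krt18 (chr15:102028180-102032027, plus strand) share chromosome 15. The type I gene Krt18 lies 23.7 kb from Krt8 at the edge of the type II cluster, and 566 kb separate Krt7 from Krt8. Krt19 (chr11:100140810-100148665, minus strand) and Krt20 (chr11:99428403-99438150, minus strand) lie 703 kb apart on chromosome 11. Antisense transcripts Gm671 and Gm36026 overlap Krt7 and Krt8; neither was listed in a table, and the strand setting used for counting is not stated in the sources used.

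The promoters of Krt8 and Krt20 are shown because these genes had the highest colonoid level and the largest colonoid change. Each runs from 250 bases before to 50 bases after the gene's start, from RefSeq on GRCm38.p6, at chr15:102004293-102004592 and chr11:99438104-99438403, both on the minus strand. Capitals mark the core of the Smad-binding CAGA box (CAGAC, or GTCTG where it lies on the other strand) and the string TATAAA, the consensus of the TATA box. The RefSeq start of Krt8 lies 140 bases inside the GENCODE span given above. That of Krt7, whose matches are counted below, lies 1360 bases inside its own span.

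Krt8: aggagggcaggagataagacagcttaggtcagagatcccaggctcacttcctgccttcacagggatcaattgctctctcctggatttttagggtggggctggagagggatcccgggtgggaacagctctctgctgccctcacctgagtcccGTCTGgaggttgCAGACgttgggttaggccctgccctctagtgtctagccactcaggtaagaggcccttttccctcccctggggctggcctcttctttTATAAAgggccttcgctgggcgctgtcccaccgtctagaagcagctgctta
Krt20: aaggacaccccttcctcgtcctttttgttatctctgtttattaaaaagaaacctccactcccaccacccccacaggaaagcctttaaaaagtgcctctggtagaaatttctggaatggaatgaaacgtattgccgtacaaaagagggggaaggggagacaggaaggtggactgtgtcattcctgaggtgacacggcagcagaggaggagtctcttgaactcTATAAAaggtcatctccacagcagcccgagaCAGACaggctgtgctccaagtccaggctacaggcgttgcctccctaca

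Of the 5 members, 4 had an entry in the RefSeq promoter table, and Krt19 had none. CAGAC matched on either strand 2 times in Krt8, 2 times in Krt7, and 1 time each in Krt18 and Krt20. It is a common string, present in 49.6% of 32851 promoters of the same length. TATAAA was found in Krt8 and Krt20 and in 13.6% of all promoters. It begins 29 bases before the RefSeq start of Krt20, but 1 base before that of Krt8, where a match on the other strand overlaps it. The Smad motif GGCGCC was found in Krt18 and in 11.9% of all promoters. The AP-1 motif TGANTCA, in 7.81% of all promoters, and an NF-κB motif, in 5.02%, were found in none of the 4. A match is only a string of letters, and its occupancy was not measured here.

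Values are CPM, reads per 1 M of an effective library size, as deposited for each table. Reads recovered for listed genes came to 23.2 to 28.6 M per colon library, 21.6 to 42.9 M per colonocyte library and 42.2 to 61.7 M per colonoid library. All 10 markers of the epithelial list, which includes Epcam and Cdh1, were listed for colon epithelium and colonoids. In the colonocyte table of TGFB1 with BMP2, 0 of the 10 were listed. In each of the other 2 colonocyte tables the only 1 listed was Cdh1, with group means of 1.15 to 1.55 CPM. All 3 colonocyte tables listed 14 of 16 mesenchymal markers, in the table of TGFB1 with BMP2 with a summed level of 15842 to 16527 CPM under TGFB1 with BMP2 and 15571 to 16408 CPM in control cells. Vim alone averaged 3085 and 3078 CPM in those groups. Colonocyte is used below as the submitters' name for these cells.

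The keratins took a large share of the reads in colonoids and colon epithelium and a very small share in colonocytes. Summed over the members listed, they took 2.17% ± 0.0517 of listed reads in colonoids given all 3 ligands, 2.27% ± 0.172 under TGFB1 with BMP2, 0.874% ± 0.133 under TNF and 0.802% ± 0.114 with vehicle (SD, n = 3 each). In colon epithelium the share was 0.771% ± 0.11 in knockout mice and 1.05% ± 0.0409 in controls (SD, n = 3 each). In colonocytes it lay between 0.00357% and 0.00561% over all 12 libraries. By mean CPM, which favours long transcripts, Krt8 ranked 1 of 11416 genes in colonoids under TGFB1 with BMP2 and 6 with vehicle, and Krt19 ranked 3 and 11 in the same groups. Krt20 ranked 75 under TGFB1 with BMP2 and 1907 with vehicle. In control colonocytes Krt8 ranked 11430 of 11434 genes. These levels were set across tables normalized separately and were not tested.

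Per kilobase of transcript, Krt8 and Krt19 made up most of the message of the 5 members in the epithelial systems. Shares are of the members listed, and other keratins are not counted. In vehicle colonoids the order was Krt8 with 38.7% ± 1.36 of summed keratin CPM per kb, Krt19 with 35.9% ± 1.13, Krt18 with 13.5% ± 0.523, Krt7 with 10.6% ± 0.429 and Krt20 with 1.32% ± 0.677 (SD, n = 3). The ranges of Krt8 and Krt19 did not overlap there, with 37.4% to 40.1% for Krt8 and 34.8% to 37.0% for Krt19. Control colon epithelium also led with Krt8 at 49.3% ± 2.54 and Krt19 at 35.1% ± 4.85, and then Krt20 at 7.96% ± 1.37, ahead of Krt18 at 5.81% ± 1.11 and Krt7 at 1.81% ± 0.0366 (SD, n = 3). The single-library ranges of Krt20 and Krt18 overlapped in that group. In control colonocytes Krt19 took 71.7% ± 4.59, Krt7 16.0% ± 2.98, Krt18 10.4% ± 0.961 and Krt8 1.90% ± 0.969 (SD, n = 3). The basal keratin Krt14, which is not a member, averaged 40.9 CPM in those cells, against 34.8 CPM for Krt19. The Krt7 shares depend on the transcript length used: with whole GENCODE transcripts, where Krt7 has 4094 instead of 1586 bases, Krt7 took 4.79% in vehicle colonoids and 7.69% in control colonocytes. In control colonocytes Krt18 then took 12.5%, so the order of Krt7 and Krt18 turned.

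**Figure D1:**
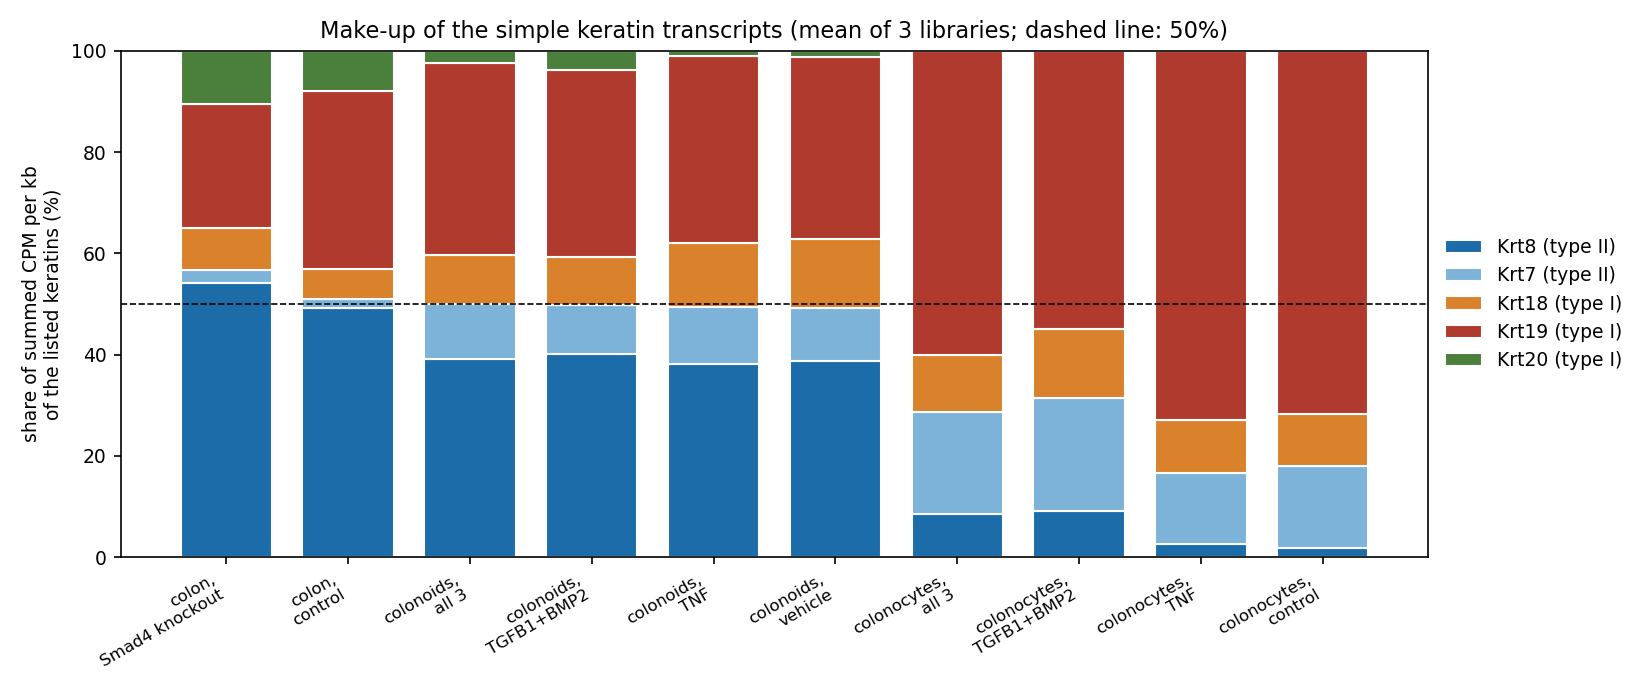
Share of each member in the summed CPM per kb of transcript of the members listed (percent, y axis) in each of the 10 groups (x axis). Bars are the mean of 3 libraries stacked to the whole, and other keratins are not counted. Krt8 and Krt19 fill most of each colonoid and colon column, and Krt19 fills 54.8% to 72.9% of each colonocyte column.

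Summed over the members listed, the type I chains and the type II chains were present at nearly equal message levels in colonoids. The ratio of summed type I to summed type II CPM per kb was 0.999 ± 0.0072 with all 3 ligands, 1.00 ± 0.0037 under TGFB1 with BMP2, 1.02 ± 0.016 under TNF and 1.03 ± 0.038 with vehicle (SD, n = 3 each). It was 0.819 ± 0.368 in knockout and 0.961 ± 0.094 in control colon epithelium (SD, n = 3 each). In colonocytes it was 2.48 ± 0.11 with all 3 ligands, 2.18 ± 0.060 under TGFB1 with BMP2, 5.01 ± 0.26 under TNF and 4.74 ± 1.13 in control cells (SD, n = 3 each). With whole GENCODE transcripts the colonoid group means were 1.11 to 1.16 and the colonocyte group means 3.60 to 9.57. Keratins outside the 5 members are not in these sums. The basal keratin Krt14 averaged 147 CPM under TGFB1 with BMP2 and 40.9 CPM in control colonocytes. The ratios therefore do not describe all keratins of those cells.

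In colonoids, TGFB1 with BMP2 raised all 5 keratins. Krt20 had 1330, 1923 and 330 CPM in lines L42, L43 and L46 under TGFB1 with BMP2, against 102, 156 and 76.4 CPM with vehicle. Krt8 had 12249, 12448 and 9547 CPM under TGFB1 with BMP2, against 3175, 2849 and 3626 CPM with vehicle. Krt19 had 8589, 8245 and 7233 CPM under TGFB1 with BMP2, against 2262, 1891 and 2748 CPM with vehicle. For each of these genes the lowest treated library stood above the highest vehicle library, and the treated L46 library was the lowest of its group. Krt7 had 2578, 2173 and 2466 CPM under TGFB1 with BMP2, against 773, 633 and 937 CPM with vehicle. Krt18, the chain encoded beside Krt8, had 2207, 1833 and 2061 CPM under TGFB1 with BMP2, against 880, 710 and 1039 CPM with vehicle. Groups did not overlap for 5 of 5 keratins, with the treated group above, as for 33.5% of all tested genes.

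On the log2(CPM + 1) scale the change was 3.14 (SE 0.64, adjusted p = 0.00785) for Krt20, from limma and the Benjamini-Hochberg method over 11633 genes. Krt8 changed by 1.82 (SE 0.21, adjusted p = 0.00186) and Krt19 by 1.81 (SE 0.20, adjusted p = 0.00168) in the same limma fit. Krt7 changed by 1.64 (SE 0.17, adjusted p = 0.00151) and Krt18 by 1.23 (SE 0.17, adjusted p = 0.0027). The ratios of mean CPM were 10.7 for Krt20, 3.55 for Krt8, 3.49 for Krt19, 3.08 for Krt7 and 2.32 for Krt18. In this comparison 56.7% of all tested genes passed the threshold of 0.05 and 28% passed it as higher, so 5 of 5 keratins stand against 28%. Scaling by total listed reads instead shifted the median of all genes by -0.28 on the log2 scale; the keratins still rose, by 0.95 to 2.86.

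Within lines, Krt20 varied most in its response. Its ratio of TGFB1 with BMP2 to vehicle was 13.1 in L42, 12.3 in L43 and 4.32 in L46. For Krt8 the ratio was 3.86, 4.37 and 2.63 in the same lines, and for Krt19 it was 3.80, 4.36 and 2.63. L46 had the smallest ratio for each of the 5 keratins. The log2 ratio of Krt19 to Krt8 was -0.50 under TGFB1 with BMP2 and -0.49 with vehicle. The log2 ratio of Krt18 to Krt8 was -2.48 under TGFB1 with BMP2 and -1.89 with vehicle.

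**Figure D2:**
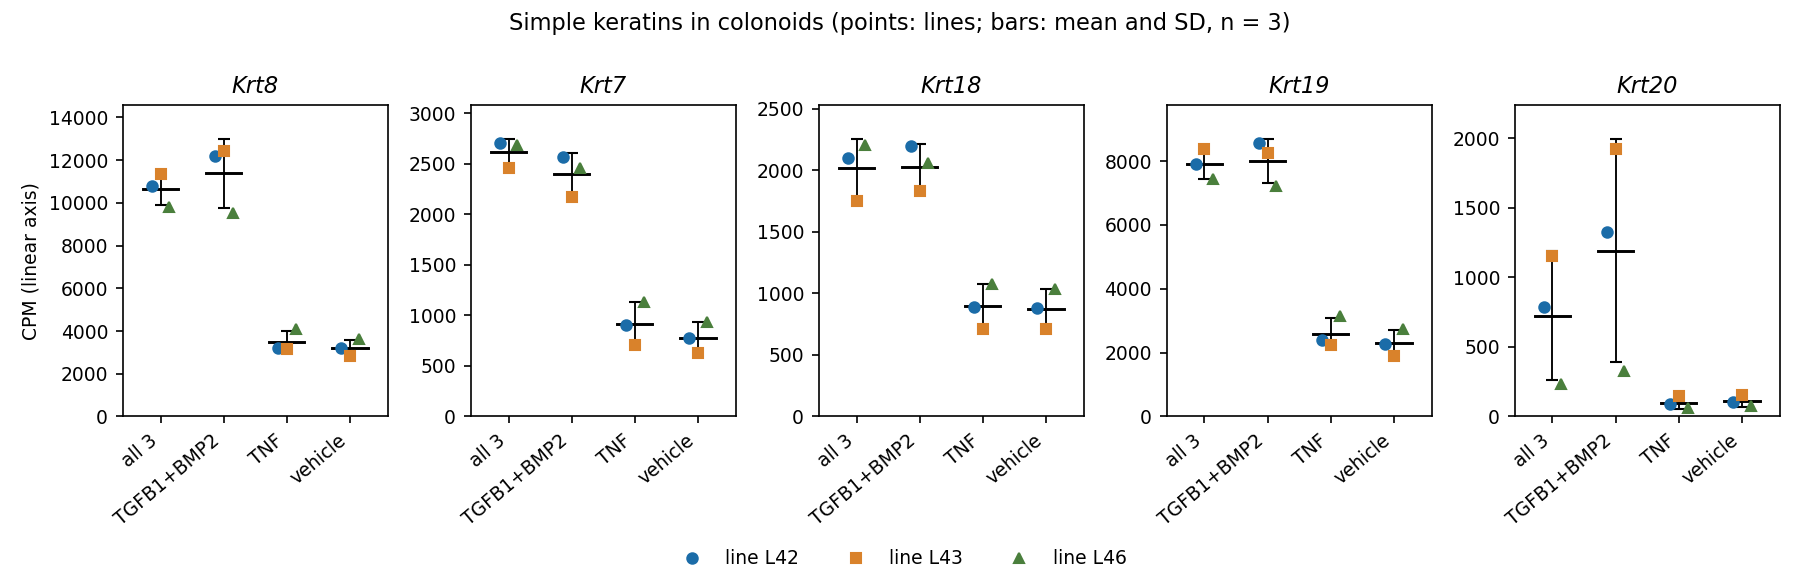
CPM of each keratin in the 12 colonoid libraries, scaled jointly over the 3 colonoid tables (y axis, linear from 0), by treatment (x axis: all 3 ligands, TGFB1 with BMP2, TNF, vehicle), with points for lines L42, L43 and L46 and bars for the mean ± SD. For all 5 keratins the points of both groups with TGFB1 and BMP2 lie above all points of the TNF and vehicle groups.

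Markers of other cell types and states also moved in this comparison, in which 28% of all genes passed as higher and 28.7% as lower. All 8 markers of cycling cells fell, with a summed level of 316 to 1095 CPM under TGFB1 with BMP2 and 1806 to 2285 CPM with vehicle. Of 10 epithelial identity markers, 8 rose and 0 fell, with a summed level of 9713 to 14488 CPM under TGFB1 with BMP2 and 4883 to 5372 CPM with vehicle. Of 9 goblet cell markers listed, 0 rose and 8 fell, 1 of them, Atoh1, in the test through the vehicle group alone. Of 14 markers of surface absorptive colonocytes listed, 4 rose and 2 fell, with 7554 to 14564 CPM under TGFB1 with BMP2 and 5407 to 6710 CPM with vehicle. Of 9 squamous markers listed, 7 rose and 0 fell, and 1 of the 7, Krt13, was in the test through the treated group alone. Of 4 mesenchymal markers listed, Fn1, a matrix protein, averaged 628 CPM under TGFB1 with BMP2 and 38.1 CPM with vehicle. The other 3 averaged under 1 CPM in 1 of the groups, so no count is given for them. Of 10 crypt base stem cell markers listed, 4 rose and 5 fell, with a summed level of 1104 to 1342 CPM under TGFB1 with BMP2 and 1455 to 1687 CPM with vehicle. Those with the largest log2 changes were Lgr5 at -3.74, Ascl2 at -2.98, Lrig1 at -2.78 and Smoc2 at -2.68. The 7 enteroendocrine markers summed to 162 to 319 CPM under TGFB1 with BMP2 and 150 to 323 CPM with vehicle, ranges that overlap. Their part in the keratin change was not tested. In bulk RNA, fewer cells of a type and less RNA per cell cannot be told apart.

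The same ligands given on top of TNF also raised all 5 keratins. Krt20 had 783, 1137 and 229 CPM with all 3 ligands, against 89.4, 146 and 61.0 CPM under TNF, in lines L42, L43 and L46. Krt8 had 10707, 11241 and 9775 CPM with all 3 ligands, against 3204, 3165 and 4091 CPM under TNF. The groups did not overlap for 5 of 5 keratins, as for 32.2% of all tested genes in that direction. The log2 change was 2.65 for Krt20 (SE 0.61, adjusted p = 0.0116), 1.61 for Krt8 (SE 0.21, adjusted p = 0.00242) and 1.61 for Krt19 (SE 0.20, adjusted p = 0.00224) from limma after Benjamini-Hochberg adjustment. Krt7 changed by 1.52 (adjusted p = 0.00221) and Krt18 by 1.17 (adjusted p = 0.00405). Of all genes, 54.1% passed and 26.4% passed as higher.

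TNF alone did not give a call for any keratin in colonoids, where 0.137% of genes passed. Krt7 had 999, 778 and 1249 CPM under TNF, against 856, 689 and 1027 CPM with vehicle, in lines L42, L43 and L46. It was higher under TNF in 3 of 3 lines, but the groups overlapped. Its log2 change was 0.23 (95% interval -0.25 to 0.70, limma adjusted p = 1). With the line as a replicate block, which these lines allow, the same change of 0.23 had a limma adjusted p of 0.0232, and 6.14% of genes passed. Krt20 had 98.1, 160 and 67.0 CPM under TNF, against 113, 170 and 83.7 CPM with vehicle. It was lower under TNF in 3 of 3 lines, with a log2 change of -0.20 (95% interval -1.04 to 0.64, limma adjusted p = 1, and 0.0839 with the line as a block). The changes of Krt8, Krt18 and Krt19 were 0.11, 0.03 and 0.18. In the limma and edgeR fits without the line as a block, 0 of the 5 keratins had an unadjusted p under 0.05.

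TNF added to TGFB1 with BMP2 was compared in a joint fit of the 12 colonoid libraries, in which 0.175% of 11413 genes passed and no keratin did. Krt20 had 788, 1150 and 230 CPM with all 3 ligands, against 1326, 1922 and 330 CPM under TGFB1 with BMP2, so its ratio was 0.594, 0.598 and 0.699 in lines L42, L43 and L46. The level was lower with TNF in 3 of 3 lines, and the groups overlapped. The log2 change was -0.67 (95% interval -2.23 to 0.89, limma adjusted p = 1, and 0.445 with the line as a block). The other 4 keratins had values of -0.09 to 0.12. In the limma and edgeR fits without the line as a block, the unadjusted p was under 0.05 for 0 of the 5. The interaction of TNF with TGFB1 and BMP2 was called for 0 of 11413 genes by limma and 0 by edgeR, with 84 genes under an unadjusted limma p of 0.05. For Krt20 the interaction was -0.47 (95% interval -2.67 to 1.74) without the line as a block. That interval includes the spread between lines and is too wide to place the difference. Within lines L42, L43 and L46, the Krt20 ratio of TNF to vehicle was 0.870, 0.942 and 0.800. With TGFB1 and BMP2 present, the ratios were the 0.594, 0.598 and 0.699 given above. All 3 ligands against vehicle raised 5 of 5 keratins, by 2.46 for Krt20 (adjusted p = 0.0112), 1.80 for Krt19 (adjusted p = 4.77e-05), 1.76 for Krt7 (adjusted p = 5.27e-05), 1.73 for Krt8 (adjusted p = 5.48e-05) and 1.21 for Krt18 (adjusted p = 0.000358) in limma, where 64.1% of genes passed and 31.2% passed as higher. These comparisons share libraries, so their values are not independent of each other.

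**Figure D3:**
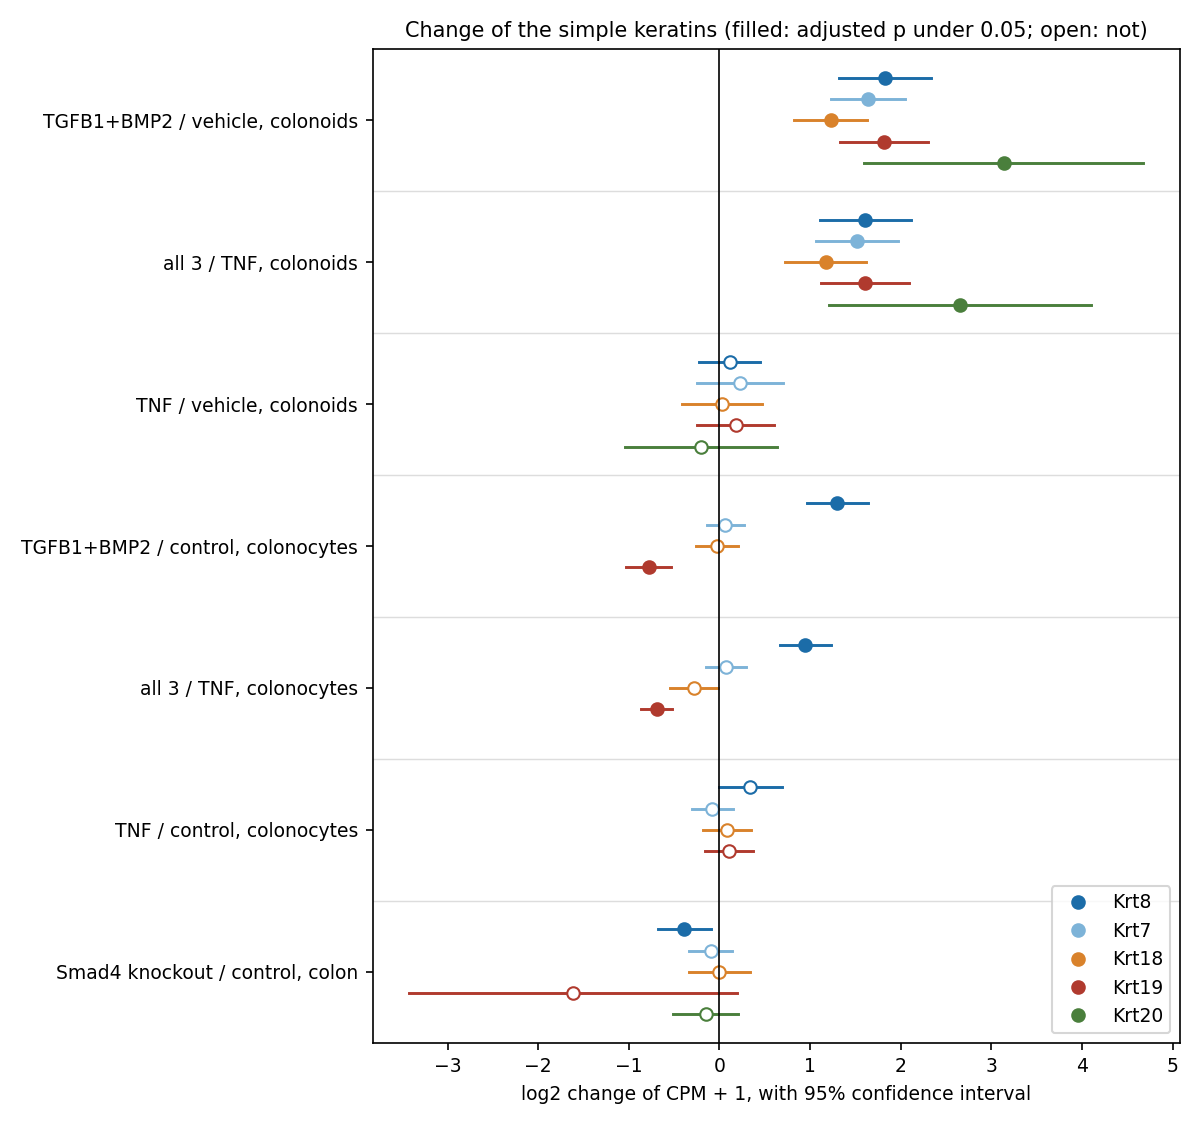
Log2 change of each keratin with its 95% interval (x axis, log2(CPM + 1) scale) in each comparison (y axis), with filled symbols for limma adjusted p under 0.05. The colonoid comparisons that add TGFB1 with BMP2 lie to the right of 0 for all 5 keratins, while in the colonocyte comparisons that add them Krt8 lies to the right and Krt19 to the left.

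In colonocytes the same ligands raised Krt8 and lowered Krt19, at levels far below those of colonoids. Krt8 had 4.65, 4.44 and 3.63 CPM under TGFB1 with BMP2, against 0.771, 1.06 and 1.61 CPM in control cells. These are 193, 176 and 88 reads under TGFB1 with BMP2, against 30, 38 and 36 reads in control cells. Krt19 had 21.3, 18.7 and 18.8 CPM under TGFB1 with BMP2, against 37.6, 39.3 and 27.4 CPM in control cells. Neither gene's groups overlapped, as for 22.3% of all tested genes above and 21.2% below. Krt8 changed by 1.3 (SE 0.16, adjusted p = 2.79e-05) and Krt19 by -0.78 (SE 0.11, adjusted p = 0.000163) on the log2(CPM + 1) scale from limma after Benjamini-Hochberg adjustment. The ratios of mean CPM were 3.69 for Krt8 and 0.564 for Krt19; the added 1 understates the change of a gene as low as Krt8, which was 1.96 on the log2 scale by edgeR on recovered reads. Of 4 keratins tested, 2 passed, against 30.2% of all genes.

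Krt7 had 9.26, 8.89 and 9.38 CPM under TGFB1 with BMP2, against 9.10, 8.05 and 9.10 CPM in control cells. Krt18 had 4.85, 5.05 and 4.91 CPM under TGFB1 with BMP2, against 4.88, 5.50 and 4.75 CPM in control cells. Both overlapped between groups, with changes of 0.06 (95% interval -0.14 to 0.27, adjusted p = 0.654) for Krt7 and -0.02 (95% interval -0.25 to 0.20, adjusted p = 0.89) for Krt18 in limma. The log2 ratio of Krt19 to Krt8 was accordingly 2.21 under TGFB1 with BMP2 and 4.97 in control cells.

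**Figure D4:**
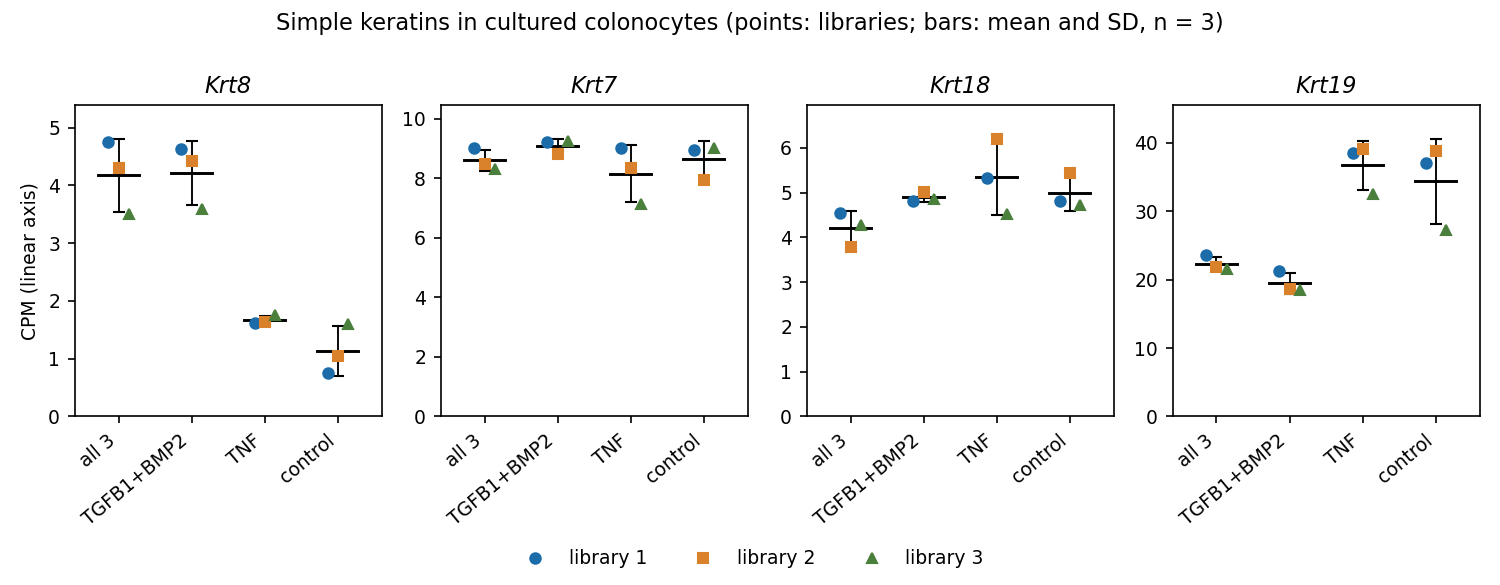
CPM of Krt7, Krt8, Krt18 and Krt19 in the 12 colonocyte libraries, scaled jointly over the 3 colonocyte tables (y axis, linear from 0), by treatment (x axis: all 3 ligands, TGFB1 with BMP2, TNF, control), with a point per library and bars for the mean ± SD. Krt8 is higher, and Krt19 lower, in both groups with TGFB1 and BMP2 than in either group without them.

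Added to TNF, the same ligands gave calls for Krt8 and Krt19 in colonocytes. Krt8 had 4.70, 4.25 and 3.46 CPM with all 3 ligands, against 1.60, 1.61 and 1.73 CPM under TNF. Krt19 had 23.3, 21.6 and 21.4 CPM with all 3 ligands, against 38.1, 38.7 and 32.3 CPM under TNF. Their groups did not overlap, as for 22.9% of genes above and 22.5% below, and the changes were 0.95 (adjusted p = 0.000112) for Krt8 and -0.69 (adjusted p = 2.82e-05) for Krt19 in limma, where 31.9% of genes passed. Krt18 had 4.49, 3.76 and 4.24 CPM with all 3 ligands, against 5.28, 6.15 and 4.47 CPM under TNF, and its change of -0.28 had an adjusted p of 0.104. Krt18 was thus not called, but this depended on the scaling and on 1 library. Its adjusted p was 0.0418 when scaled by total listed reads and 0.0366 without TNF replicate 3. Krt7 had a log2 difference of 0.07 (limma adjusted p = 0.629).

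TNF alone gave no call for the 4 keratins in colonocytes, where 6.28% of genes passed. Krt8 had 1.66, 1.68 and 1.81 CPM under TNF, against 0.783, 1.08 and 1.65 CPM in control cells. The groups did not overlap, as for 13% of genes in that direction, but the change of 0.34 (95% interval -0.01 to 0.69) had a limma adjusted p of 0.282. Unadjusted, 0 of the 4 keratins were under 0.05 by limma and 1, Krt8, by edgeR, where its adjusted p was 0.229. With the replicate number as a block no keratin passed either. TNF added to TGFB1 with BMP2 gave no call for the 4 keratins either, with 4.13% of genes passing; Krt19 had a log2 difference of 0.19 (95% interval -0.04 to 0.42, limma adjusted p = 0.454). The interaction was called for 1 of 11434 genes (0.00875%), which was no keratin. With all 3 ligands against control cells, Krt8 changed by 1.29 (adjusted p = 2.18e-06) and Krt19 by -0.58 (adjusted p = 0.000357) in limma, with 44.2% of genes passing. Krt18 had a log2 difference of -0.20 there (limma adjusted p = 0.151), and of -0.30 (limma adjusted p = 0.0334) when scaled by total listed reads, a scaling that shifts the median of all genes by -0.11.

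In colon epithelium the targeted gene checked the labels. Smad4 had 47.8, 59.2 and 46.1 CPM in knockout mice, against 132, 148 and 152 CPM in controls, a log2 change of -1.49 (limma adjusted p = 7.01e-05).

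The knockout lowered Krt8, and no other keratin passed. Krt8 had 4404, 3986 and 4780 CPM in knockout mice, against 5809, 5944 and 5421 CPM in controls. The groups did not overlap, as for 25.2% of genes below, and the ratio of means was 0.767. The log2 change was -0.39 (SE 0.13, adjusted p = 0.0375) from limma after Benjamini-Hochberg adjustment. Of 5 keratins, 1 passed, against 39.7% of all genes, and 19.9% of all genes passed as lower. The call is narrow: leaving out 1 library ended it in 5 of 6 cases, with an adjusted p of 0.0558 to 0.155. Only without knockout replicate 3 did it hold, at 0.0198.

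Krt19 rested on 1 library. It had 173, 2672 and 2239 CPM in knockout mice, against 2519, 3607 and 3295 CPM in controls. Knockout replicate 1 stood far below all other libraries, while replicate 2 lay within the control range. The log2 change was -1.62 (SE 0.81, 95% interval -3.42 to 0.19, limma adjusted p = 0.139). Without knockout replicate 1 it was -0.34 (limma adjusted p = 0.139), and by edgeR on all libraries it was -0.89 (adjusted p = 0.314). In that library Krt19 stood 3.82 below the mean of the other 2 knockout libraries on the log2 scale, the second lowest of 11607 genes, after the steroid enzyme gene Hsd3b3 at -4.25. The other 4 keratins of that library lay 0.01 to 0.25 above the same mean. The summed level of the squamous and anal transition markers was also highest there: the 4 listed of 16 summed to 963, 90.1 and 406 CPM in knockout mice, against 269, 76.1 and 71.7 CPM in controls. In knockout replicate 1 most of the sum was Krt15, a basal keratin, at 879 CPM. Krt15 averaged 406 CPM in knockout mice and 60.8 CPM in controls and was not called. The others listed, Pkp1, Sprr1a and Krt10, averaged 73.7, 4.16 and 2.95 CPM in knockout mice. In controls they averaged 71.4, 4.31 and 2.49 CPM. The relation of Krt15 to the Krt19 level was not tested.

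Krt20 had 990, 682 and 1012 CPM in knockout mice, against 1118, 879 and 953 CPM in controls. Krt7 had 193, 162 and 164 CPM in knockout mice, against 174, 200 and 182 CPM in controls. Krt18 had 568, 417 and 580 CPM in knockout mice, against 612, 483 and 469 CPM in controls. All 3 overlapped between groups, with changes of -0.15 (95% interval -0.51 to 0.21, adjusted p = 0.482) for Krt20, -0.10 (95% interval -0.33 to 0.14, adjusted p = 0.488) for Krt7 and -0.00 (95% interval -0.34 to 0.33, adjusted p = 0.987) for Krt18 in limma.

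**Figure D5:**
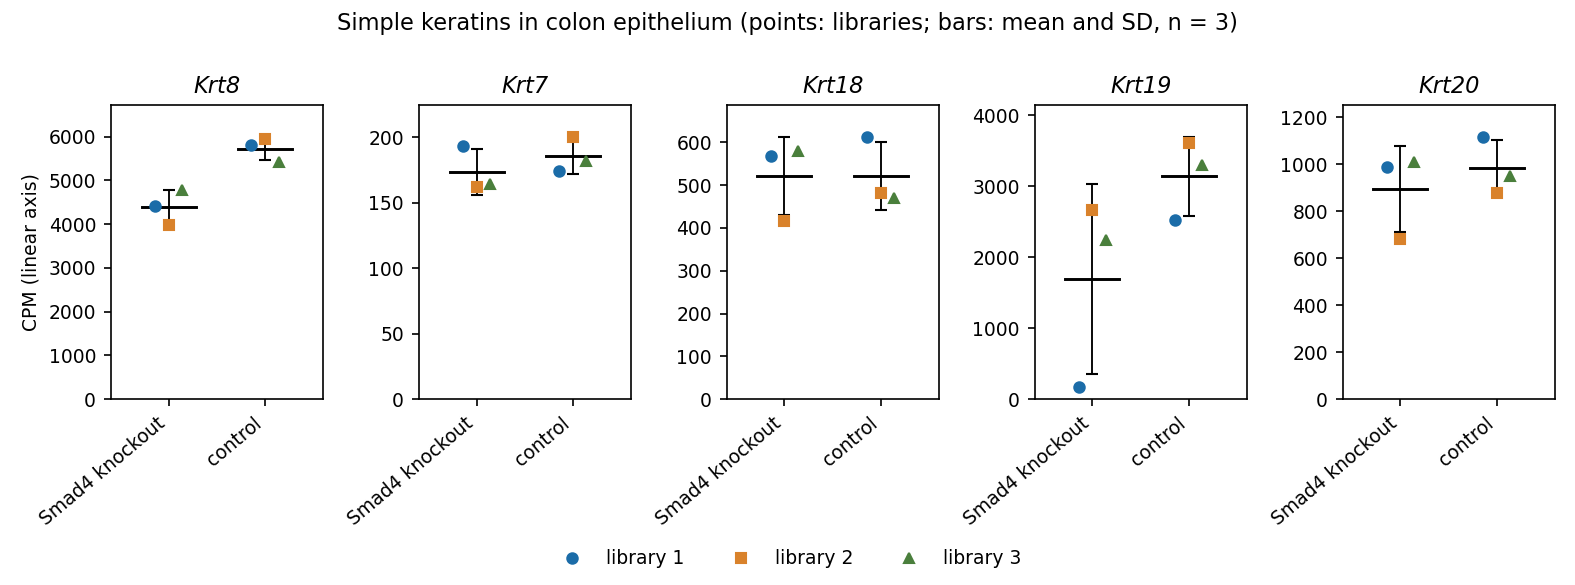
CPM of each keratin in the 6 colon epithelium libraries (y axis, linear from 0) by genotype (x axis: knockout, control), with a point per mouse library and bars for the mean ± SD. The Krt8 points of the knockout lie below those of the control, and a lone knockout point of Krt19 lies at 173 CPM.

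Other markers differed in the knockout as well, where 19.8% of all genes passed as higher and 19.9% as lower. Of 14 surface absorptive markers listed, 2 rose and 7 fell, with a summed level of 15251 to 20209 CPM in knockout mice and 21083 to 22279 CPM in controls. Of 10 goblet cell markers, 1 rose and 7 fell. Of 10 epithelial identity markers, 1 rose and 4 fell, while their sum was 6079 to 6392 CPM in knockout mice and 6221 to 6519 CPM in controls. Of 7 enteroendocrine markers, 0 rose and 4 fell, with a summed level of 176 to 189 CPM in knockout mice and 283 to 332 CPM in controls. Of 10 crypt base stem cell markers listed, 3 rose and 3 fell, among them, as log2 changes, Ascl2 at -1.83, Lgr5 at 1.23, Axin2 at -1.14 and Smoc2 at 1.08. Of 8 cycling cell markers, 2 rose and 0 fell, and of 4 tuft cell markers listed, 0 rose and 2 fell. Their part in the Krt8 change was not tested.

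Genes that work with the keratins were read from fixed lists. Of 28 other keratins, mostly of stratified epithelium, 11 were tested in colonoids, and 6 rose and 0 fell under TGFB1 with BMP2. Of all genes, 28% passed as higher there and 28.7% as lower. Of those 6, Krt13 and Krt16 averaged 0.641 and 0.752 CPM with vehicle and passed the filter on low values through the treated group alone, so the count is partly set by the filter. The basal keratin Krt14 averaged 299 ± 92.1 CPM under TGFB1 with BMP2 and 18.4 ± 9.60 CPM with vehicle (SD, n = 3 each), a log2 change of 4.02. Krt6a changed by 3.67 and Krt36 by 3.28, and Krt13 averaged 15.8 CPM under TGFB1 with BMP2. In colonocytes Krt14 averaged 147 ± 22.8 CPM under TGFB1 with BMP2 and 40.9 ± 5.46 CPM in control cells (SD, n = 3 each). There, 2 of 4 other keratins tested rose and 0 fell, while 15.9% of all genes passed as higher and 14.3% as lower. In the knockout, 3 were tested, with adjusted p-values of 0.117 to 0.358 by limma.

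Of the genes that anchor keratin filaments at desmosomes and hemidesmosomes, 21 of 23 were tested in colonoids, and 17 rose and 1 fell under TGFB1 with BMP2, with a median log2 change of 1.37. The desmosomal cadherin Dsg3 changed by 2.79, the linker plectin (Plec) by 2.26, the hemidesmosomal integrin Itgb4 by 1.96 and desmoplakin (Dsp) by 1.82. Plec averaged 1036 CPM under TGFB1 with BMP2 and 212 CPM with vehicle. In colonocytes 8 of 17 tested rose and 3 fell, among them Itgb4 with a change of 1.07 and periplakin (Ppl) with -1.25. In the knockout, 8 of 20 tested rose and 1 fell, with Dsg2 at 0.58 and Pkp3 at -0.57. The median in the knockout was 0.14, against 0.00 over all genes. Of all genes, 28% passed as higher and 28.7% as lower in colonoids. The shares were 15.9% and 14.3% in colonocytes, and 19.8% and 19.9% in the knockout.

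Among the remaining intermediate filament genes, members fell as well as rose. Under TGFB1 with BMP2 in colonoids, 1 of 5 tested rose and 3 fell: Lmna by 1.26, Lmnb1 by -1.48, Nes by -1.22 and Lmnb2 by -1.15. In colonocytes 1 of 10 rose and 2 fell, with Lmna at 0.51. In the knockout 0 of 5 rose and 3 fell, with Lmna at -0.58 and Vim at -0.55. Of 18 factors linked to simple keratin genes or to the colon surface, 5 rose and 2 fell in colonoids, led by the AP-1 genes Fos (2.29) and Jun (1.73) and the homeobox gene Cdx1 (-1.48). In the knockout 6 of 17 rose and 4 fell, with Klf5 at 0.96, Maf at -1.85, Ovol1 at -1.21 and Cdx2 at -0.65. In colonocytes 1 of 8 rose and 2 fell. These shares stand against 28% higher and 28.7% lower over all genes in colonoids, 15.9% and 14.3% in colonocytes, and 19.8% and 19.9% in the knockout.

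Likeness of pattern was described by Pearson's r of log2(CPM + 1), with each library centred on the mean of its system, so that r reflects variation within systems. Over 30 libraries and 9832 genes, Krt8 was most like Smad7, an inhibitory Smad that TGFB signaling induces (r = 0.979), then Map2k1, Pdlim1, Lamb3 and Furin. Krt7 was most like Tns4 (r = 0.975), then Smox, Osbpl3, 4930402H24Rik and Vill. Krt18 was most like Paqr4 (r = 0.944), Capn1 and Krt7 (r = 0.937). Over the 18 libraries and 10889 genes of the systems that list it, Krt20 was most like Cnnm4 (r = 0.973), Ctse, Pon2, Tmem127 and Lhfpl2. Krt19 was most like Plcd3 (r = 0.844), but without knockout replicate 1 it was most like Chp1 (r = 0.968), and its r with Krt7 was then 0.873 instead of 0.559. Between members, r was 0.816 for Krt7 with Krt8, 0.704 for Krt8 with Krt18 and 0.407 for Krt8 with Krt19. Without knockout replicate 1, the r of Krt8 with Krt19 was 0.542. The libraries share systems and treatments, so these values carry no test.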

How the data were processed

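The submitters' processing notes name the build mm10 and the tools edgeR 3.4.2, HTSeq 0.5.4p5, TopHat2 2.1.0, SAMtools 1.3.1, bcl2fastq 2.16 and CASAVA; neither their roles nor the strand setting is stated. The authors deposited 7 tables of 6 libraries, each holding a CPM signal against an effective library size that was set per table. Per the file headers, the deposited tables also hold log2 fold changes, log2 CPM, p-values and false discovery rates, which were not used for any result. The CPM values were whole multiples of 1 read for 100% of values (within 0.05), so counts of reads were recovered.

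Each comparison was fitted within its table with limma 3.58.1 (R 4.3.3, trended variance, two-sided) on log2(CPM + 1) of all genes with mean CPM of at least 1, adjusted by the Benjamini-Hochberg method at 0.05. Every keratin listed passed that filter. Comparisons across tables used recovered reads of 12 libraries with TMM scaling and genes listed in all 3 tables. edgeR 4.0.16 on recovered reads, a pseudocount of 0.5, no filter, scaling by total listed reads, a replicate block and leaving out each library were the alternatives. The fits were tested on simulated counts. Lengths are exons within RefSeq bounds.

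Same-numbered libraries deviated together in all 18 pairings of colonoid groups (r = 0.279 to 0.939), which share their lines. In colonocytes r was above 0 in all 18 pairings but lower, at 0.0492 to 0.525. It was 0.276, 0.273 and 0.525 for TNF against control, and 0.174, 0.162 and 0.413 for all 3 ligands against TNF. For all 3 ligands against TGFB1 with BMP2 it was 0.212, 0.219 and 0.427.

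The members and lists were chosen with earlier results of these data known. All members are named; of a list, up to 4 called genes with the largest change per comparison, and the 5 genes most like each member. Lists of cell type markers are given where they bear on a keratin.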

Additional observations from a re-analysis of the deposited data

Results flagged for a closer look

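Krt19 moved in opposite directions in the 2 ligand-treated systems. Under TGFB1 with BMP2 its log2 change was -0.78 in colonocytes and 1.81 in colonoids, each against its own controls. Added to TNF, the same ligands gave -0.69 in colonocytes and 1.61 in colonoids. In each comparison every library with TGFB1 and BMP2 lay below all reference libraries in colonocytes and above all reference libraries in colonoids. That is what singled these values out. The reference was control cells, vehicle or TNF. The difference between the systems was not tested, because the tables were normalized separately and no dose or time is stated for the colonocytes. The levels differed too: Krt19 averaged 34.8 CPM in control colonocytes and 2301 CPM in vehicle colonoids.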

How the results depend on the processing

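Over the 5 keratins and all comparisons, the alternatives that keep all libraries left 286 values on the same side of the threshold with the same direction; 4 became calls and 5 changed sign, all of the last near 0. The sign changes were Krt18 in the knockout (-0.0039 as reported, 0.016 scaled by total listed reads, 0.0015 by edgeR), Krt7 scaled by total listed reads in colonocytes under TGFB1 with BMP2 (-0.014) and with these added to TNF (-0.0012), and the Krt7 interaction in colonocytes by edgeR (-0.0061).

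With a replicate block, keratin calls became 2 in the knockout, where Krt19 (-1.62) gained an adjusted p of 0.0148, and 1 under TNF in colonoids (Krt7). In colon epithelium the numbers share little (correlations 0.065, 0.123 and -0.0074), nor do they pair all groups of the joint colonocyte fit (0.049 to 0.525) or TGFB1 with BMP2 against control colonocytes (0.257, 0.049 and 0.256). The block moved calls over all genes to 2356 against 728 for TNF in colonocytes, 718 against 16 for TNF in colonoids, 998 against 472 and 254 against 20 for TNF added to TGFB1 with BMP2 in colonocytes and colonoids, and 30 against 1 for the colonocyte interaction. It changed no other keratin call. edgeR gave 13 calls for TNF added in colonoids and 0 for the colonocyte interaction, which had 0 with a pseudocount of 0.5 and 2 with total listed reads. Total listed reads shifted the median log2 change of all genes by -0.28 for TGFB1 with BMP2, -0.27 for these added to TNF and -0.29 for all 3 ligands in colonoids, and by -0.11 for all 3 ligands in colonocytes. That scaling also moved the split of calls, to 1228 higher and 2896 lower against 1848 and 1665 for TGFB1 with BMP2 in colonocytes, 1997 and 5026 against 3262 and 3334 in colonoids, 1266 and 3065 against 1892 and 1802 for these added to TNF in colonocytes, 1912 and 4890 against 3061 and 3217 in colonoids, 1545 and 4195 against 2686 and 2364 for all 3 ligands in colonocytes, and 2142 and 5390 against 3563 and 3754 in colonoids. For TNF in colonocytes it gave 442 and 296 against 534 and 194, and for TNF added to TGFB1 with BMP2 there 296 and 180 against 351 and 121.

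Leaving out 1 library at a time gave 0 to 1 keratin calls in the knockout. Over all genes it gave 2708 to 4915 calls in the knockout, 400 to 1217 and 1 to 8 for TNF in colonocytes and colonoids, 4177 to 7558 for TGFB1 with BMP2 added to TNF in colonoids, 279 to 570 and 6 to 30 for TNF added to TGFB1 with BMP2 in colonocytes and colonoids, and 0 to 10 for the colonocyte interaction. Log2 changes whose sign turned spanned -0.088 to 0.15 (Krt18) and -0.25 to 0.033 (Krt20) in the knockout. In colonocytes they spanned -0.14 to 0.0074 (Krt7), -0.016 to 0.18 (Krt18) and -0.051 to 0.20 (Krt19) under TNF, -0.059 to 0.029 (Krt18) under TGFB1 with BMP2, -0.012 to 0.14 (Krt7) with these added to TNF, -0.10 to 0.087 (Krt8) for TNF added to TGFB1 with BMP2, -0.058 to 0.025 (Krt7) with all 3 ligands, and -0.079 to 0.072 (Krt7) and -0.0081 to 0.24 (Krt19) for the interaction. In colonoids they spanned -0.0087 to 0.20 (Krt8), -0.12 to 0.19 (Krt18) and -0.53 to 0.098 (Krt20) under TNF, -0.082 to 0.089 (Krt18), -0.088 to 0.035 (Krt19) and -1.43 to 0.012 (Krt20) for TNF added to TGFB1 with BMP2, and -0.28 to 0.068 (Krt7), -0.20 to 0.11 (Krt18) and -1.22 to 0.22 (Krt20) for the interaction. Where a setting moved a value, the cause was not tested. With 3 libraries a group, and no line block in colonoids, intervals for Krt20 in colonoids and Krt19 in the knockout are wide. Colonocyte Krt8 rests on 30 to 193 reads.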
